A study of Homo sapiens with 24 samples.

Results

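Keratins are the intermediate filament proteins of epithelial cells, and the genes described here are every gene of the count files whose symbol is KRT followed by a number, with at most 1 letter from A to C after it. This rule finds 55 of the 23106 genes, of which 29 encode type I and 26 encode type II keratins, and it leaves out keratin-associated proteins and keratin pseudogenes. RNA-seq was performed on 4 established human cancer cell lines, each kept either in 21% oxygen (normoxia) or in 0.5% oxygen for 16 h (hypoxia), with 3 libraries for each of the 8 groups. A549 is labelled as a lung, HCT116 as a colon, PC3 as a prostate and T47D as a breast cancer line, and the labels name no transgene or drug. A549 and PC3 cells grew in F12K, HCT116 cells in McCoy's 5a and T47D cells in DMEM, so that a difference between lines and a difference between media cannot be told apart, except between A549 and PC3. The labels do not say that the 3 libraries of a group came from separate cultures, and p values therefore measure the spread between these libraries, which may be technical.

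A keratin filament is built from type I and type II chains in equal amounts, so that each cell needs at least 1 keratin of each type. KRT8 with KRT18, joined by KRT19 and KRT7 in many glands and ducts, forms the filaments of simple epithelia, while KRT5 with KRT14 serves the basal layer and KRT1 with KRT10 the upper layers of the epidermis. Other pairs belong to moist stratified linings (KRT4 and KRT13), to wounded or fast-growing epithelium (KRT6A, KRT6B, KRT16 and KRT17) and to hair (KRT31 to KRT40 and KRT81 to KRT86). All type II genes lie in a cluster on chromosome 12, and all type I genes lie on chromosome 17 apart from KRT18, which stands beside KRT8 on chromosome 12.

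Library totals ranged from 22698584 to 62850747 counts, and levels are given below as CPM, the count for every 1000000 counts of a library whose size was scaled with TMM, the edgeR method that evens out differences in RNA composition. The floor of 3 counts corresponded to between 0.0450 and 0.123 CPM, and it covers counting error only. The epithelial markers EPCAM, CDH1, CLDN4 and CLDN7 were all above 1 CPM in HCT116, PC3 and T47D cells in normoxia, and 3 of these 4 were above 1 CPM in A549 cells. Their level was much lower in A549 cells, where the 4 genes summed to 19.7 to 30.9 CPM in the normoxic libraries. The same sum was 529 to 760 CPM in HCT116, 1051 to 1100 CPM in PC3 and 886 to 1565 CPM in T47D cells. T47D cells had the breast markers ESR1 (174 CPM) and PGR (663 CPM) in normoxia. Of the tissue markers of the other lines, the lung markers NKX2-1, SFTPB, SFTPC and NAPSA summed to 0.185 to 0.715 CPM in the normoxic A549 libraries, KLK3 was at 0 in PC3 cells, where HOXB13 was at 74.5 CPM, and CDX1 was at 0 in HCT116 cells, where CDX2 was at 11.8 CPM. The mesenchymal intermediate filament gene VIM was at 1290 CPM in A549 and 320 CPM in PC3 cells, against 4.71 CPM in HCT116 and 0.865 CPM in T47D cells, and its part in the keratin differences was not tested. The mesenchymal markers CDH2, FN1, COL1A1, COL3A1 and PDGFRB summed to between 20.1 and 446 CPM in the normoxic libraries, and the blood and endothelial markers to at most 31.8 CPM.

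The question asked first was which keratins each line used. KRT8, KRT18 and KRT19 were high in all 4 lines, and the remaining family differed between lines by orders of magnitude. Of the 55 keratins, 24 either reached a mean of 1 CPM in at least 1 group or changed in hypoxia in at least 1 line, and the other 31 stayed below that level, with KRT85 the highest of them at 0.661 ± 0.0849 CPM in normoxic A549 cells (SD, n = 3). KRT1, KRT25, KRT26, KRT28, KRT76 and KRT82 had 0 counts in all 24 libraries. The basal-layer keratins KRT5 and KRT14 were close to absent in these lines, with at most 10 and 17 counts in any library.

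**Figure D1:**
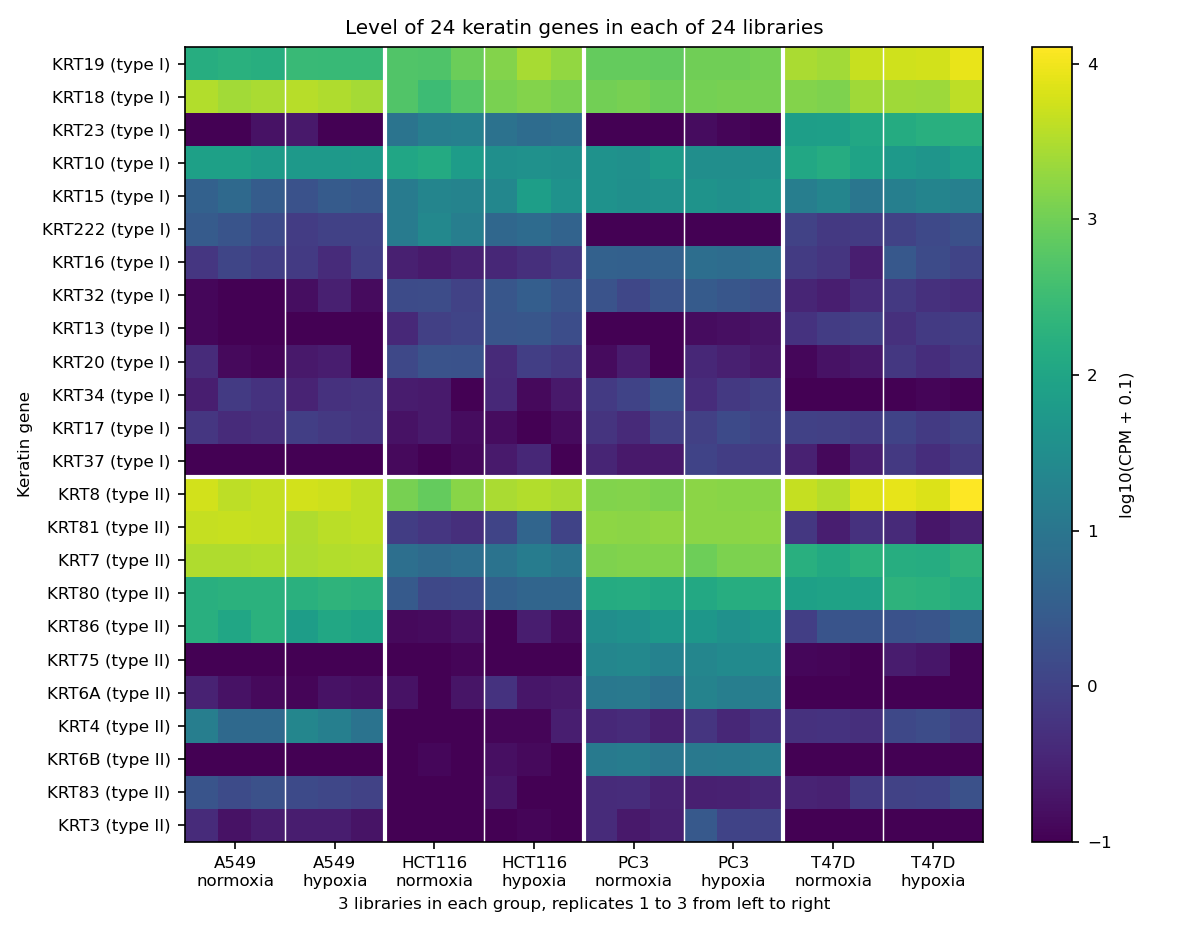
Level of the 24 named keratins (rows, type I above the white line and type II below it) in each of the 24 libraries (columns, grouped by line and oxygen state), as log10 of CPM + 0.1 on a colour scale. KRT18, KRT19 and KRT8 are bright throughout, while KRT81 is bright in A549 and PC3, KRT7 and KRT80 in A549, PC3 and, less so, T47D, KRT75, KRT6A and KRT6B in PC3, and KRT23 in T47D.

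KRT8 (chr12:53290971-53343738 in GRCh37, minus strand, 8 exons) encodes the type II chain of simple epithelia. In normoxia it was at 5751, 3992 and 4607 CPM in A549, 1167, 802 and 1566 CPM in HCT116, 1366, 1419 and 1243 CPM in PC3, and 4559, 3409 and 6783 CPM in T47D cells. A549 and T47D cells thus formed a higher group whose libraries overlapped each other, and HCT116 and PC3 cells a lower group whose libraries also overlapped. KRT8 was 3.94-fold higher in A549 than in HCT116 cells (edgeR adjusted p = 1.88e-05), whereas the difference between A549 and T47D cells was -0.02 ± 0.28 on the log2 scale (SE, adjusted p = 0.963) and that between HCT116 and PC3 cells was -0.20 ± 0.28 (adjusted p = 0.548).

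KRT18 (chr12:53342655-53346690, plus strand, 7 exons), the type I partner of KRT8, was at 3326, 2520 and 2842 CPM in A549, 522, 325 and 571 CPM in HCT116, 1049, 1128 and 945 CPM in PC3, and 1432, 1336 and 2363 CPM in T47D cells in normoxia. The libraries of the 4 lines did not overlap for KRT18, with A549 highest and HCT116 lowest. Each step of that order passed the edgeR test, at 1.72-fold from T47D to A549 (adjusted p = 0.0124), 1.56-fold from PC3 to T47D (adjusted p = 0.0347) and 2.22-fold from HCT116 to PC3 cells (adjusted p = 0.00087). Without HCT116 normoxia replicate 2 the smallest gap of KRT18 from HCT116 to another line was -0.90 on the log2 scale, which is under the 2-fold limit set further on for a line-specific gene.

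KRT19 (chr17:39679869-39684560, minus strand, 6 exons) encodes a short type I keratin, which has next to no tail. In normoxia it was at 154, 173 and 163 CPM in A549, 536, 501 and 913 CPM in HCT116, 795, 804 and 761 CPM in PC3, and 2903, 2542 and 4700 CPM in T47D cells. All T47D libraries were above, and all A549 libraries below, those of the other 2 lines, which overlapped each other. KRT19 was 4.07-fold higher in T47D than in PC3 cells (edgeR adjusted p = 5.13e-06) and 4.11-fold lower in A549 than in HCT116 cells (adjusted p = 5.92e-06), and HCT116 and PC3 cells differed by -0.28 ± 0.26 on the log2 scale (adjusted p = 0.347).

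KRT7 (chr12:52626304-52645970, plus strand, 9 exons), the other type II keratin of glands and ducts, separated the lines far more than KRT8 did. Its normoxic levels were 3090, 3212 and 3274 CPM in A549, 1299, 1398 and 1375 CPM in PC3, 165, 126 and 186 CPM in T47D, and 7.08, 5.75 and 6.86 CPM in HCT116 cells. No library of one line overlapped another line. By edgeR, KRT7 was 2.27-fold higher in A549 than in PC3 (adjusted p = 4.63e-05), 9.01-fold higher in PC3 than in T47D (adjusted p = 8.22e-10) and 23.1-fold higher in T47D than in HCT116 cells (adjusted p = 2.49e-11).

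KRT81 (chr12:52679697-52685318, minus strand, 9 exons), a type II keratin of the hair shaft, stood among the most abundant keratins of A549 and PC3 cells. It was at 4576, 4703 and 4558 CPM in normoxic A549, 1703, 1626 and 1797 CPM in PC3, 0.756, 0.553 and 0.379 CPM in HCT116, and 0.582, 0.165 and 0.436 CPM in T47D cells. KRT81 was therefore 2.6-fold higher in A549 than in PC3 (edgeR adjusted p = 0.000226) and 3080-fold higher in PC3 than in HCT116 cells (adjusted p = 2.19e-12), while HCT116 and T47D cells differed by 0.62 ± 0.37 on the log2 scale (adjusted p = 0.144). Its neighbour KRT86, another hair-shaft keratin, was at 165, 104 and 179 CPM in A549 and 33.8, 38.6 and 53.3 CPM in PC3 cells, with at most 2.03 CPM in the normoxic T47D libraries and 2 to 5 counts in the normoxic HCT116 libraries. KRT81 and KRT86 lie on opposite strands over the same bases and share sequence, with 38.4% of the 50-base stretches of KRT81 found in KRT86, so that the split of reads between them is uncertain.

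The type I hair keratins (KRT31 to KRT40), which pair with KRT81 and KRT86 in hair, had no group mean above 2.52 CPM in any line, and their highest library was KRT32 at 3.24 CPM in hypoxic HCT116 cells. To compare levels between genes, CPM was divided by transcript length in kilobases. On that scale KRT81 was at 2391 in normoxic A549 and 886 in normoxic PC3 cells, beside 2681 and 753 for KRT8 and 2049 and 737 for KRT18. The summed type II keratins per kilobase exceeded the summed type I keratins by 3.26 ± 0.210 times in normoxic A549 and 1.89 ± 0.0977 times in normoxic PC3 cells (SD, n = 3). In HCT116 and T47D cells, where KRT81 was below 1 CPM in every normoxic library, the same ratio was 0.751 ± 0.0764 and 0.766 ± 0.0702. KRT7, also type II, was at 1964 per kilobase in A549, 835 in PC3, 97.7 in T47D and 4.04 in HCT116 cells in normoxia. The part of each gene in the ratio was not tested. The KRT8 to KRT18 ratio per kilobase was 1.30 ± 0.0596 in A549, 1.97 ± 0.202 in HCT116, 1.02 ± 0.0239 in PC3 and 2.27 ± 0.250 in T47D cells. These ratios depend on how many fragments of each gene had a unique position, since 54.3% of the 50-base stretches of KRT18 and 39.2% of those of KRT8 also occur in other genes' transcripts.

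Per kilobase, 5 genes supplied nearly all keratin transcripts. KRT8 made up 28.5% of the summed keratin level in normoxic A549 cells, KRT81 25.7%, KRT18 21.8%, KRT7 21.1% and KRT19 1.26%. In normoxic PC3 cells the same genes supplied 19.3%, 22.8%, 18.9%, 21.4% and 14.5%. KRT8, KRT19 and KRT18 alone supplied 42.5%, 30.2% and 21.8% in normoxic HCT116 and 41.4%, 36.7% and 18.3% in normoxic T47D cells. Keratins as a whole took 1.53 ± 0.0979% of all counts in A549, 0.247 ± 0.0813% in HCT116, 0.691 ± 0.0173% in PC3 and 1.15 ± 0.301% in T47D cells in normoxia (SD, n = 3).

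**Figure D2:**
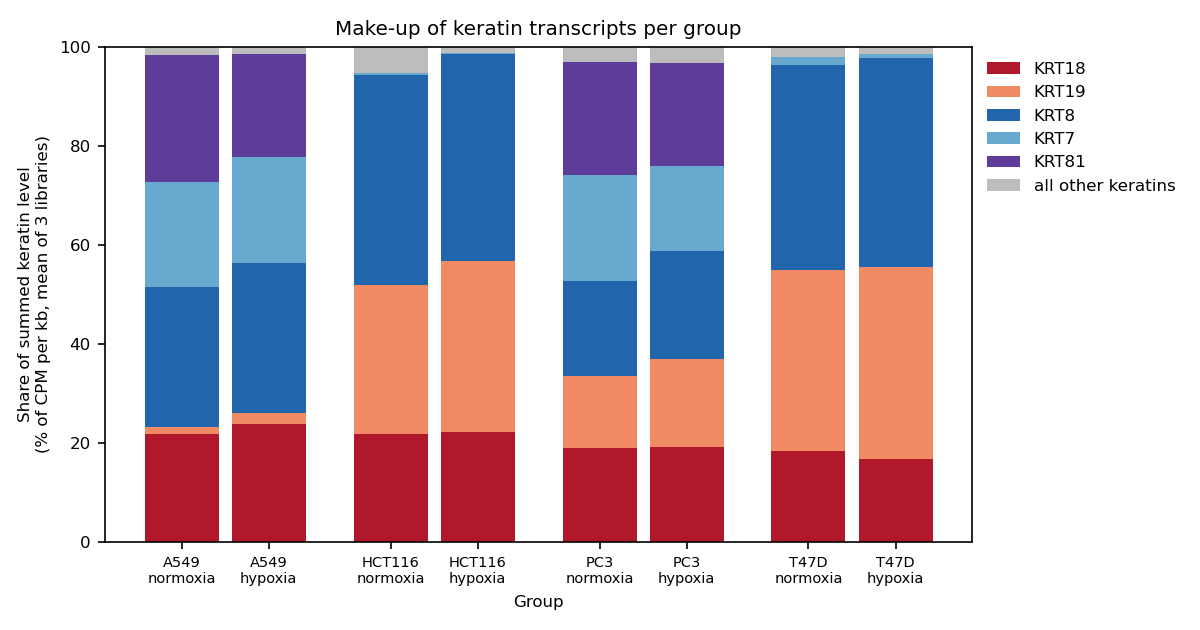
Share of the summed keratin level (percent of CPM per kilobase, mean of 3 libraries) held by KRT18, KRT19, KRT8, KRT7, KRT81 and all other keratins in each of the 8 groups. KRT81 (25.7%) and KRT7 (21.1%) stand out in the bar of normoxic A549 cells and are barely visible in HCT116 and T47D cells, where KRT19 takes 30.2% and 36.7% in normoxia.

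A keratin was called line-high where it was more than 2-fold above each of the other 3 lines in normoxia with an edgeR adjusted p under 0.05 in all 3 contrasts, and line-low in the mirror case. Of the 55 keratins, 24 had enough counts to be tested in these contrasts, and the others were at or near 0 in normoxia. A549 cells had 6 line-high keratins (7.41% of all 15616 genes tested were line-high there), HCT116 cells 2 (7.29%), PC3 cells 5 (5.98%) and T47D cells 3 (10.3%). The line-low calls numbered 3 in A549 (4.77% of all genes), 8 in HCT116 (5.79%), 1 in PC3 (5.39%) and 2 in T47D cells (8.70%). In the hypoxic libraries, 11 of the 16 line-high calls and 12 of the 14 line-low calls were made again.

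The line-high keratins of A549 cells were KRT7, KRT81 and KRT86 (3.44-fold above PC3 cells, adjusted p = 2.66e-05), together with KRT4, KRT83 and KRT85. KRT4, the type II keratin of the oesophageal and oral lining, was at 15.4, 5.58 and 5.49 CPM in normoxic A549 cells, with replicate 1 well above the other 2, against at most 0.450 CPM in any normoxic library of the other lines, and it was 20.9-fold above T47D cells (adjusted p = 9.75e-07). The hair keratin KRT83 was at 2.0, 1.38 and 1.78 CPM in A549 cells and 4.92-fold above T47D cells (adjusted p = 0.00138). In hypoxia KRT83 was no longer highest in A549 cells, with a smallest gap of -0.09 on the log2 scale, and KRT86 was 0.96 above the next line, under the 2-fold limit. The KRT85 call (3.58-fold over PC3 cells, adjusted p = 0.0211) rested on 4 to 9 counts per PC3 library and was lost without A549 replicate 1 or 3 or PC3 replicate 1 or 2, with adjusted p from 0.0569 to 0.112. It was also lost by DESeq2 (0.0721), without a count filter (0.0586), with the replicate block (0.0551) and in the hypoxic libraries (0.90 on the log2 scale, adjusted p = 0.173). A549 cells were line-low for KRT19, for the basal keratin KRT15 (3.68-fold under T47D cells, adjusted p = 1.46e-05) and for the hair keratin KRT32, which had 1 count in the 3 normoxic A549 libraries together.

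PC3 cells were line-high for KRT75, KRT6A, KRT6B, KRT16 and KRT15. KRT75, a type II keratin of the hair follicle's companion layer, was at 22.0, 23.9 and 18.1 CPM in normoxic and 22.4, 27.7 and 28.1 CPM in hypoxic PC3 cells. It had 0 counts in all A549 libraries, at most 1 count in the HCT116 libraries, and at most 9 counts in the T47D libraries, so that no PC3 library was near those of another line (largest adjusted p of the 3 contrasts, 1.96e-10). KRT6B, a keratin of wounded epidermis, was at 12.6, 14.0 and 10.2 CPM in normoxic PC3 cells and had at most 1 count in any normoxic library of the other lines. KRT6A, its near copy, was at 10.8, 11.7 and 8.0 CPM in PC3 cells and had at most 10 counts in the other normoxic libraries. The 2 genes share sequence with KRT6C (35.2% of the 50-base stretches of KRT6A and 44.4% of those of KRT6B), which itself had at most 7 counts in any library, so that their split is uncertain. KRT16, the type I partner of KRT6A, was at 3.72, 3.54 and 3.83 CPM in PC3 cells, 4.82-fold above A549 cells (adjusted p = 0.000318). KRT15, at 40.0, 34.8 and 37.5 CPM in PC3 cells, was 2.13-fold above HCT116 cells (adjusted p = 0.00168), was 0.91 above on the log2 scale without HCT116 replicate 1, and was not higher in the hypoxic libraries, where the smallest gap was -0.15.

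The promoter of KRT75 is printed as that of a keratin whose counts came almost wholly from PC3 cells, with the hypoxia motif letters ACGTG, in either direction, in capitals. It is the 250 bases before the RefSeq start site (GRCh38.p14, chr12:52434372-52434621, minus strand).
KRT75: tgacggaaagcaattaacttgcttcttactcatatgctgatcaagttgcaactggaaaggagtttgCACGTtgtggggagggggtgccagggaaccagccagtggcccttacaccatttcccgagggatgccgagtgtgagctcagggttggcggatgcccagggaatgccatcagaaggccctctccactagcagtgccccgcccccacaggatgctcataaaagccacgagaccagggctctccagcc
The window holds 1 copy of the motif, and the hypoxia difference of KRT75 in PC3 cells was 0.27 ± 0.13 on the log2 scale (edgeR adjusted p = 0.134).

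HCT116 cells were line-high for KRT20 and KRT222. KRT20, a type I keratin of the intestinal lining, was at 1.18, 1.90 and 1.86 CPM in normoxic HCT116 cells, above every normoxic library of the other lines, of which the highest was at 0.327 CPM (smallest gap 13.5-fold, adjusted p = 0.000749). In the hypoxic libraries KRT20 did not pass as line-high, with a smallest gap of 0.21 on the log2 scale. KRT222, a type I keratin-like gene, was at 13.1, 23.7 and 14.9 CPM in HCT116, 2.80, 2.06 and 1.28 CPM in A549 and 0.898, 0.6 and 0.688 CPM in T47D cells, while all 6 PC3 libraries had 0 counts. A further gene on the same strand covers 36.2% of the 50-base stretches of KRT222, so that the source of its reads is uncertain. KRT222 was 8.72-fold higher in HCT116 than in A549 cells (adjusted p = 1.81e-06). HCT116 cells were line-low for KRT7, KRT18, KRT80, KRT86, KRT83, KRT4, KRT16 and KRT17. KRT80, a type II keratin found in many epithelia, was at 2.73, 1.19 and 1.31 CPM in normoxic HCT116 cells against 80.2 to 184 CPM in the libraries of the other lines, 46.2-fold below T47D cells (adjusted p = 2.77e-11). KRT4 and KRT83 had 0 counts in the normoxic HCT116 libraries. The KRT16 call was the least firm (2.52-fold below T47D cells, adjusted p = 0.0281) and was lost without HCT116 replicate 1 or 2 or T47D replicate 1 or 2, with adjusted p from 0.0529 to 0.126.

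T47D cells were line-high for KRT19, KRT23 and KRT33A. KRT23, a type I keratin, was at 72.4, 76.7 and 118 CPM in normoxic T47D and 9.14, 15.0 and 16.9 CPM in HCT116 cells, a 6.21-fold difference (edgeR adjusted p = 2.17e-06), and had at most 4 counts in the normoxic libraries of A549 and PC3 cells. KRT33A, a type I hair keratin that shares 22.3% of its 50-base stretches with KRT33B, was at 0.656 ± 0.259 CPM in normoxic T47D cells (SD, n = 3) and had 0 counts in the other 3 lines. The line-low calls of T47D cells, KRT34 and KRT6A, compared 0 counts in T47D libraries with 0 to 8 and 0 to 6 counts in HCT116 libraries.

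KRT10, a keratin of the upper epidermis, was neither line-high nor line-low in any line. It was at 118, 143 and 92.3 CPM in T47D, 106, 136 and 67.2 CPM in HCT116, 81.1, 80.7 and 64.0 CPM in A549, and 40.7, 37.2 and 62.1 CPM in PC3 cells in normoxia. Neighbours in that order overlapped apart from A549 and PC3 cells, which differed by 0.64 on the log2 scale (edgeR adjusted p = 0.0349). KRT10 differed by 0.13 on the log2 scale between T47D and HCT116 cells and by 0.50 between HCT116 and A549 cells without passing the edgeR test (adjusted p = 0.655 and 0.0882).

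The second question was how keratins changed in hypoxia within each line. Each line had its own edgeR fit, which did not pair libraries by replicate number, and a fit of T47D cells that did so is described below. A gene counted as changed if its level moved more than 1.2-fold with an adjusted p below 0.05. Of the 55 keratins, 29 passed the filter on low counts in at least 1 line, 9 passed it in all 4 lines and 26 in none, and 18 were called in at least 1 line. In A549 cells 1 keratin was higher and 4 were lower of 16 tested (17.6% and 17.8% of all genes tested in that line). In HCT116 cells 9 were higher and 4 lower of 14 (23.3% and 27.0% of all genes). In PC3 cells 5 were higher and 0 lower of 22 (16.6% and 15.7%), with 1 lower at an unadjusted p under 0.05 and 1 lower by DESeq2, and in T47D cells 3 were higher and 1 lower of 22 (6.55% and 6.69%). The median log2 fold change of the keratins tested was -0.23 in A549, 1.22 in HCT116, 0.20 in PC3 and 0.81 in T47D cells, where the median over all genes was -0.01, -0.03, -0.01 and -0.01.

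The T47D libraries with the same replicate number deviated together across genes, with a correlation of 0.150 to 0.325 in each of the 3 pairs. In HCT116 cells replicates 1 and 2 gave 0.289 and 0.225, and replicate 3 gave 0.071. Normoxic libraries of different lines with the same number, which are not pairs, gave -0.275 to 0.362. The T47D correlations therefore do not show that its libraries were paired. A fit blocked on that number (the replicate block) called 10 of 22 keratins higher there, KRT8, KRT18 and KRT19 among them, and 1 lower. Of all 14408 genes tested in that fit, 1327 were called higher and 1537 lower. In bulk RNA, a change in the share of cells that express a keratin and a change in its level per cell cannot be told apart.

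**Figure D3:**
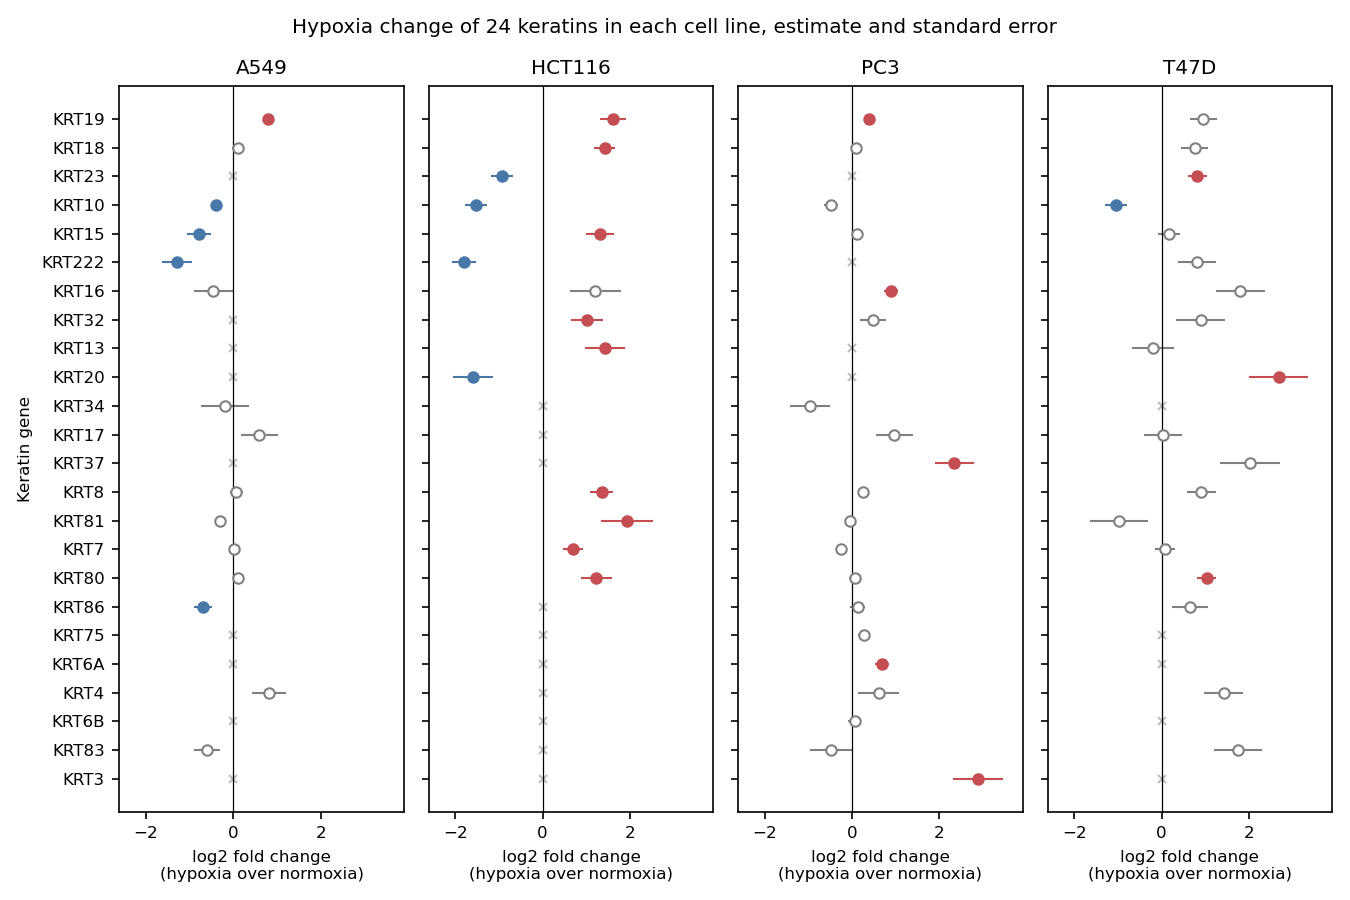
Hypoxia over normoxia log2 fold change (x axis) with its standard error for each of the 24 named keratins (y axis) in each line, from the edgeR fit of that line without the replicate block. Red points were called higher, blue points lower, open points were not called, and grey crosses at 0 mark genes that did not pass the filter on low counts and have no estimate. KRT10 is left of 0 in all 4 lines, and KRT19 is right of 0 in all 4.

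In HCT116 cells KRT8, KRT18, KRT19 and KRT7 rose, while KRT20, the remaining keratin of simple epithelia, fell. KRT8 was at 1167, 802 and 1566 CPM in normoxia and at 2904, 3303 and 2880 CPM in hypoxia, so that each hypoxic library was above each normoxic one. KRT8 rose 2.55-fold (log2 1.35 ± 0.26, edgeR adjusted p = 0.000925). KRT18 was at 522, 325 and 571 CPM in normoxia and 1180, 1453 and 1204 CPM in hypoxia, and it rose 2.67-fold (1.42 ± 0.24, adjusted p = 0.000476). KRT19 was at 536, 501 and 913 CPM in normoxia and 1447, 2699 and 1867 CPM in hypoxia, and it rose 3.05-fold (1.61 ± 0.29, adjusted p = 0.000648). The hypoxic libraries of both genes were above all normoxic ones, and keratins took 0.638 ± 0.0730% of all counts in hypoxic against 0.247 ± 0.0813% in normoxic HCT116 cells (SD, n = 3). Per kilobase, the share of each gene in the keratin sum went from 42.5% to 41.8% for KRT8, 21.8% to 22.2% for KRT18 and 30.2% to 34.6% for KRT19, and the type II over type I ratio was 0.730 ± 0.120 in hypoxia (SD, n = 3).

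Other keratins of HCT116 cells rose from a lower level. KRT15 went from 13.4, 20.6 and 19.0 CPM to 23.2, 71.5 and 40.4 CPM and rose 2.49-fold (adjusted p = 0.00444), with hypoxia replicate 2 the highest of the 3. KRT7 went from 7.08, 5.75 and 6.86 CPM to 8.82, 14.0 and 9.79 CPM (1.63-fold, adjusted p = 0.0228), and KRT80 from 2.73, 1.19 and 1.31 CPM to 3.56, 4.50 and 4.48 CPM (2.35-fold, adjusted p = 0.0111). All these groups were separate, yet the KRT7 call was lost without hypoxia replicate 2 (0.50 on the log2 scale, adjusted p = 0.118), and the KRT80 call was lost once log fold changes were adjusted for GC content and length (0.81, adjusted p = 0.0605). KRT13, the mucosal type I keratin, rose 2.68-fold from 0.295, 0.818 and 1.04 CPM to 2.14, 2.18 and 1.52 CPM (adjusted p = 0.0203). The hair keratin KRT32 rose 2.03-fold from 1.35, 1.42 and 0.899 CPM to 2.27, 3.24 and 2.06 CPM (adjusted p = 0.0299) and lost its call without hypoxia replicate 2 or normoxia replicate 3 (adjusted p = 0.118 and 0.0755). The KRT81 call (0.756, 0.553 and 0.379 CPM in normoxia and 1.03, 4.55 and 0.946 CPM in hypoxia, adjusted p = 0.0151) rested on 1 library, since without hypoxia replicate 2 its log2 fold change was 0.82 in place of 1.93 (adjusted p = 0.235).

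The keratins that fell in HCT116 cells were 4 type I genes. KRT10 went from 106, 136 and 67.2 CPM to 35.5, 38.8 and 35 CPM, with no overlap, and fell to 0.345 of its normoxic level (edgeR adjusted p = 0.000374). KRT20 went from 1.18, 1.90 and 1.86 CPM to 0.306, 0.792 and 0.576 CPM (0.331 of normoxia, adjusted p = 0.0111), and this call was lost without normoxia replicate 2 (adjusted p = 0.0535) and in a single fit of all 24 libraries (adjusted p = 0.09). KRT23 went from 9.14, 15.0 and 16.9 CPM to 8.37, 6.23 and 7.24 CPM (0.526 of normoxia, adjusted p = 0.00886), and it was lost without normoxia replicate 2 or 3 (adjusted p = 0.0501 and 0.0508). KRT222 went from 13.1, 23.7 and 14.9 CPM to 5.00, 6.05 and 4.07 CPM (0.287 of normoxia, adjusted p = 0.000237). In all 4 genes every hypoxic library was below every normoxic one, and how often this held over all genes was not counted. KRT222 has the lowest GC content of the keratins (34.0%), and after the correction for GC content and length its log2 fold change was -0.43 in place of -1.80 (adjusted p = 0.105).

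**Figure D4:**
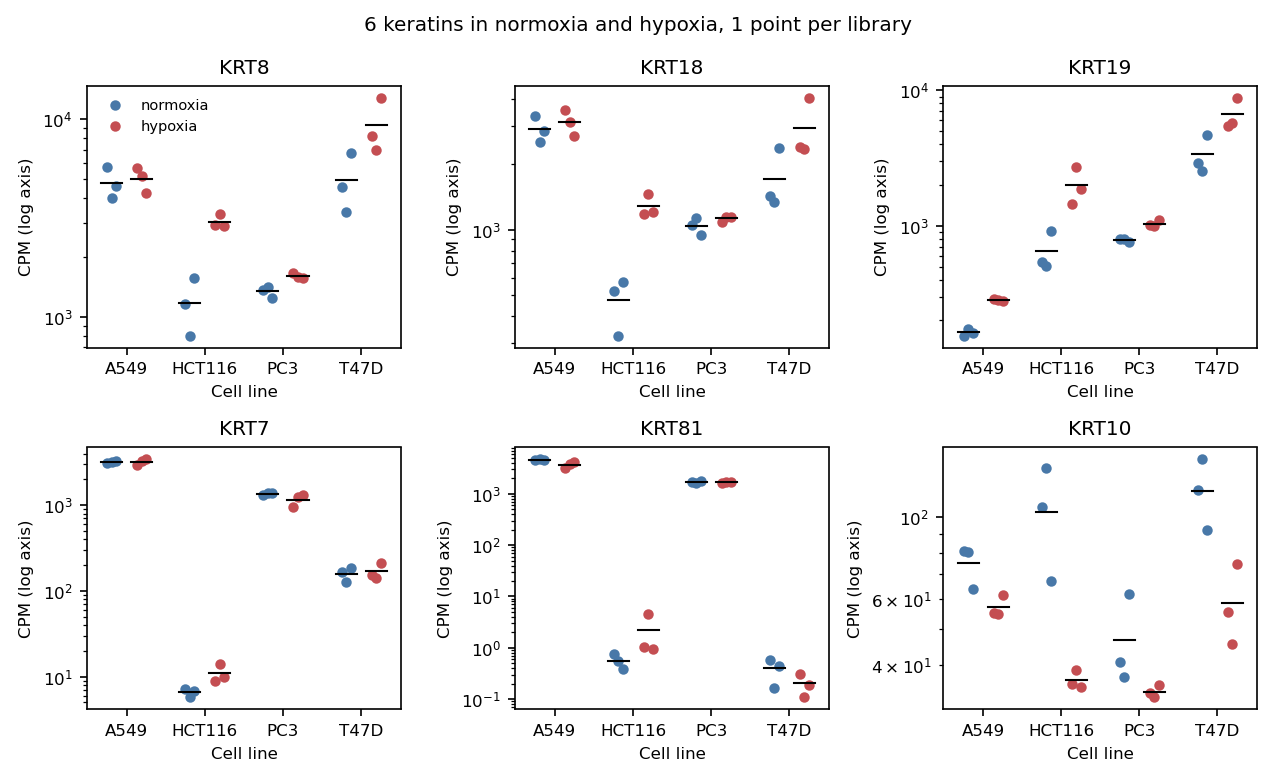
CPM (log axis) of KRT8, KRT18, KRT19, KRT7, KRT81 and KRT10 in each library, with normoxia in blue, hypoxia in red and the mean of 3 libraries as a bar, for the 4 lines. The hypoxic KRT8 libraries of HCT116 cells (2880 to 3303 CPM) sit above its normoxic ones (802 to 1566 CPM), and the red KRT10 points sit below the blue ones in every line.

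In T47D cells KRT8, KRT18 and KRT19 did not pass the edgeR test for hypoxia without the replicate block and passed it with the block. KRT8 was at 4559, 3409 and 6783 CPM in normoxia and 8230, 7003 and 12840 CPM in hypoxia, and replicate 3 was the highest library in both states. The groups did not overlap, but KRT8 did not pass the edgeR test (log2 0.91 ± 0.33, adjusted p = 0.0831), and with the replicate block it did (0.91 ± 0.24, adjusted p = 0.0220). KRT19 was at 2903, 2542 and 4700 CPM in normoxia and 5453, 5732 and 8792 CPM in hypoxia, again without overlap and with replicate 3 highest in both states. Its log2 fold change was 0.96 ± 0.31 (adjusted p = 0.0575) and 0.97 ± 0.23 with the replicate block (adjusted p = 0.0169). KRT18 was at 1432, 1336 and 2363 CPM in normoxia and 2394, 2338 and 4031 CPM in hypoxia, with normoxia replicate 3 inside the hypoxic range. Its log2 fold change was 0.76 ± 0.31 (adjusted p = 0.117) and 0.75 ± 0.22 with the block (adjusted p = 0.0368). Without T47D normoxia replicate 3 all these genes passed the test, at adjusted p = 0.0340 for KRT8, 0.0202 for KRT19 and 0.0418 for KRT18.

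The keratins called higher in T47D cells were KRT80, KRT23 and KRT20. KRT80 was at 80.2, 89.2 and 82.5 CPM in normoxia and 201, 181 and 144 CPM in hypoxia, and it rose by 1.03 ± 0.21 on the log2 scale (edgeR adjusted p = 0.00838). KRT23 went from 72.4, 76.7 and 118 CPM to 137, 164 and 176 CPM and rose 1.76-fold (0.82 ± 0.22, adjusted p = 0.0306). KRT20 went from 1, 5 and 7 counts to 35, 24 and 30 counts, or from 0.0722 ± 0.0467 to 0.500 ± 0.111 CPM (SD, n = 3). These hypoxic libraries were all above the normoxic ones, and KRT20 passed the test (2.68 ± 0.67 on the log2 scale, adjusted p = 0.0231). KRT20 and KRT23 thus rose in T47D cells and fell in HCT116 cells. Without normoxia replicate 1 all 3 calls were lost, at adjusted p = 0.0841 for KRT80, 0.188 for KRT23 and 0.141 for KRT20. Those of KRT23 and KRT20 were also lost without hypoxia replicate 1 (adjusted p = 0.053 and 0.085) or normoxia replicate 2 (0.128 and 0.102), and that of KRT23 without hypoxia replicate 2 (0.0738).

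Lower keratins of T47D cells gave similar values just above the threshold. KRT16 was at 0.679, 0.525 and 0.168 CPM in normoxia and 2.49, 1.36 and 1.012 CPM in hypoxia (log2 1.80 ± 0.56, edgeR adjusted p = 0.0525, and 0.0126 with the replicate block). The other keratins with this pattern were KRT4 (1.42 ± 0.45, adjusted p = 0.0526, and 0.0395 with the block), the hair keratin KRT83 (1.76 ± 0.55, adjusted p = 0.0521, and 0.0168 with the block) and the hair keratin KRT37 (2.02 ± 0.69, adjusted p = 0.0683, and 0.0402 with the block). In each of these 4 genes every hypoxic library was above every normoxic one, but the share of all genes with such a separation was not counted. KRT7, by contrast, was at 165, 126 and 186 CPM in normoxia and 152, 143 and 213 CPM in hypoxia (0.07 ± 0.23, adjusted p = 0.864). The type II over type I ratio per kilobase was 0.771 ± 0.0735 in hypoxic T47D cells (SD, n = 3), and keratins took 1.95 ± 0.425% of all counts there.

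In A549 cells KRT19 rose, while KRT8, KRT18 and KRT7 did not pass the test. KRT8 was at 5751, 3992 and 4607 CPM in normoxia and 5649, 5137 and 4247 CPM in hypoxia, with overlapping libraries and a log2 difference of 0.07 ± 0.15 (edgeR adjusted p = 0.725). The difference was 0.11 ± 0.14 for KRT18 (adjusted p = 0.541) and 0.01 ± 0.10 for KRT7 (adjusted p = 0.925). KRT19 was at 154, 173 and 163 CPM in normoxia and 287, 282 and 277 CPM in hypoxia, with no overlap, and it rose 1.73-fold (0.79 ± 0.10, adjusted p = 0.000245). KRT81 was at 4576, 4703 and 4558 CPM in normoxia and 3212, 3793 and 4155 CPM in hypoxia. All 3 hypoxic libraries were lower, and the KRT81 difference of -0.31 ± 0.11 narrowly missed the test (adjusted p = 0.0547), which it passed without hypoxia replicate 3 (adjusted p = 0.0252). Per kilobase, the type II over type I ratio was 2.82 ± 0.360 in hypoxic against 3.26 ± 0.210 in normoxic A549 cells, with overlapping libraries, and keratins took 1.39 ± 0.0831% of all counts in hypoxia against 1.53 ± 0.0979% (SD, n = 3).

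The keratins that fell in A549 cells were KRT86, KRT10, KRT15 and KRT222. KRT86 went from 165, 104 and 179 CPM to 68.9, 115 and 91.7 CPM, with hypoxia replicate 2 above normoxia replicate 2 (0.619 of normoxia, edgeR adjusted p = 0.0220). KRT10 went from 81.1, 80.7 and 64.0 CPM to 55.1, 54.9 and 61.5 CPM (0.762 of normoxia, adjusted p = 0.0219), and KRT15 from 3.78, 5.47 and 3.03 CPM to 1.86, 2.88 and 2.38 CPM (0.582 of normoxia, adjusted p = 0.0395). Neither KRT10 nor KRT15 overlapped between states. KRT222 went from 2.80, 2.06 and 1.28 CPM to 0.721, 0.894 and 0.890 CPM (0.411 of normoxia, adjusted p = 0.0125), also with no overlap. None of these 4 calls held when normoxia replicate 1 was left out, with adjusted p = 0.0596 for KRT86, 0.0919 for KRT10, 0.0573 for KRT15 and 0.0738 for KRT222, and after the GC content and length correction KRT222 was at -0.80 on the log2 scale in place of -1.28 (adjusted p = 0.0545). Leaving out hypoxia replicate 1 also ended the calls of KRT86, KRT10 and KRT15 (adjusted p = 0.0778, 0.0648 and 0.126), and so did a single fit of all 24 libraries (0.117, 0.23 and 0.0977). The KRT86 call was further lost without normoxia replicate 3 (0.0854), and that of KRT15 without hypoxia replicate 3 (0.0701) or normoxia replicate 2 (0.209). KRT4, at 15.4, 5.58 and 5.49 CPM in normoxia and 21.8, 16.0 and 8.59 CPM in hypoxia, did not pass the test (0.82 ± 0.39, adjusted p = 0.116), and without normoxia replicate 1 it did (1.48, adjusted p = 0.00406).

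In PC3 cells KRT19 rose, together with the wound keratins KRT16 and KRT6A, the cornea keratin KRT3 and the hair keratin KRT37. KRT19 was at 795, 804 and 761 CPM in normoxia and 1008, 1004 and 1101 CPM in hypoxia, with no overlap, and it rose 1.30-fold (log2 0.38 ± 0.09, edgeR adjusted p = 0.0118, and 0.0566 without hypoxia replicate 3). KRT16 went from 3.72, 3.54 and 3.83 CPM to 6.96, 6.40 and 7.50 CPM, with no overlap, and it rose 1.85-fold (0.89 ± 0.15, adjusted p = 0.00375). KRT6A went from 10.8, 11.7 and 8.0 CPM to 19.4, 15.0 and 15.2 CPM (0.68 ± 0.16, adjusted p = 0.0136, and 0.0555 without hypoxia replicate 1). Its near copy KRT6B was at 12.6, 14.0 and 10.2 CPM in normoxia and 11.7, 12.6 and 14.6 CPM in hypoxia (0.06 ± 0.15, adjusted p = 0.771), and the difference between the 2 genes in their change was not tested. KRT17, the remaining wound keratin that was tested, was at 0.491, 0.307 and 0.815 CPM in normoxia and 0.824, 1.30 and 0.9995 CPM in hypoxia (0.97 ± 0.42, adjusted p = 0.101), and it passed without normoxia replicate 3 (1.44, adjusted p = 0.0346).

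The cornea keratin KRT3 went from 8, 7 and 6 counts to 114, 49 and 53 counts in PC3 cells, or from 0.212 ± 0.104 to 1.496 ± 0.965 CPM (SD, n = 3). The hair keratin KRT37 went from 6, 7 and 4 counts to 42, 38 and 41 counts, and 32.0% of its 50-base stretches lie in a gene on the opposite strand. In both genes each hypoxic library was above each normoxic one, and edgeR called KRT3 (2.89 ± 0.57, adjusted p = 0.0064) and KRT37 (2.34 ± 0.45, adjusted p = 0.00592). In a single fit of all 24 libraries the calls of KRT37 (adjusted p = 0.0551), KRT16 (0.135), KRT6A (0.262) and KRT19 (0.288) were lost. KRT8 was at 1366, 1419 and 1243 CPM in normoxia and 1666, 1599 and 1576 CPM in hypoxia. These libraries did not overlap, yet the difference of 0.24 ± 0.09 missed the test (adjusted p = 0.0601) and passed it without normoxia replicate 2 (adjusted p = 0.0458). KRT18 (0.09 ± 0.09, adjusted p = 0.474), KRT7 (-0.25 ± 0.12, adjusted p = 0.148), KRT81 (-0.04 ± 0.09, adjusted p = 0.732) and KRT80 (0.06 ± 0.12, adjusted p = 0.697) did not pass it. Per kilobase, the type II over type I ratio of PC3 cells was 1.82 to 2.001 in the normoxic and 1.59 to 1.66 in the hypoxic libraries, which did not overlap, and keratins took 0.704 ± 0.0379% of all counts in hypoxia (SD, n = 3). KRT34, a type I hair keratin, was at 0.654, 0.975 and 1.81 CPM in normoxia and 0.343, 0.591 and 0.844 CPM in hypoxia (-0.96 ± 0.46, adjusted p = 0.127).

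KRT10 (chr17:38974369-38978866, minus strand, 8 exons) was lower in hypoxia in all 4 lines, and its hypoxic libraries lay below its normoxic ones in each of them. How many of all genes were separated in this way was not counted. KRT10 fell in A549, HCT116 and T47D cells by edgeR, where T47D cells went from 118, 143 and 92.3 CPM to 55.5, 45.6 and 74.8 CPM (log2 -1.04 ± 0.25, adjusted p = 0.0183). In PC3 cells KRT10 went from 40.7, 37.2 and 62.1 CPM to 33.6, 32.8 and 35.4 CPM and did not pass the test (-0.48 ± 0.17, adjusted p = 0.0563), but it passed by DESeq2 (adjusted p = 0.0235) and without normoxia replicate 2 (-0.63, adjusted p = 0.00795). Of the A549 libraries, leaving out hypoxia replicate 1 or 2 or normoxia replicate 1 or 2 ended the KRT10 call (adjusted p from 0.0648 to 0.103), and the same libraries of T47D cells did so there (adjusted p from 0.0570 to 0.122). An antisense gene, KRT10-AS1, overlaps KRT10 on the other strand and shares 0.669% of its 50-base stretches.

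KRT19 was higher in hypoxia in all 4 lines, with calls in A549, HCT116 and PC3 cells, a call with the replicate block in T47D cells, and no overlap between oxygen states in any line. The PC3 call was lost without hypoxia replicate 3 (edgeR adjusted p = 0.0566) and in a single fit of all 24 libraries (0.288). The share of all genes with such a separation in every line was not counted. 

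Whether the hypoxia change of a keratin differed between lines was tested as the interaction of line and oxygen state in a single edgeR fit of all 24 libraries. Of 29 keratins tested, 13 were called (18.3% of all 16089 genes tested). The smallest adjusted p values were those of KRT222 (0.00413), with changes of -1.80 in HCT116, -1.28 in A549 and 0.81 in T47D cells on the log2 scale (1.40 in T47D cells after adjustment for GC content and length, adjusted p = 0.0294), and of KRT80 (0.00426), with 1.23 in HCT116, 1.03 in T47D, 0.12 in A549 and 0.06 in PC3 cells. KRT15 followed (0.00828), at 1.32 in HCT116 and -0.78 in A549 cells, then KRT18 (0.0101), KRT81 (0.0102) and KRT8 (0.0223), all of which had their largest increase in HCT116 cells. KRT23 (0.0246) and KRT20 (0.0356) moved in opposite directions in HCT116 and T47D cells. KRT83 (0.0271) was at 1.76 in T47D and -0.60 in A549 cells, KRT16 (0.0381) was at 1.80 in T47D and -0.45 in A549 cells, and KRT7 (0.0394), KRT10 (0.0451) and KRT19 (0.0490) were closest to the threshold. KRT13 (0.0530) and KRT86 (0.115) missed it. KRT19 and KRT7 lost the call with RLE size factors (0.0553 and 0.0525), without a count filter (0.0626 and 0.0773) and at a mean count of 50 or more (0.064 and 0.0621), and KRT16 with library totals (0.0593). The counts depended on which replicate number was left out of every group. Without replicate 1, 4 keratins and 636 of all genes were called, against 2940 genes with all libraries. Without replicate 2 these were 0 keratins (9 at an unadjusted p under 0.05) and 165 genes. Without replicate 3 they were 9 keratins and 2478 genes.

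The genes that anchor keratin filaments, taken as lists by function, also moved in hypoxia. Desmosome genes, which tie keratin filaments to cell junctions, were called higher for 7 of 7 tested in A549, 5 of 7 in HCT116, 4 of 8 in PC3 and 2 of 8 in T47D cells, and 0 were called lower by edgeR, by DESeq2 or at an unadjusted p under 0.05. Over all genes tested, 17.6%, 23.3%, 16.6% and 6.55% were called higher in these lines, in the same order. The log2 fold changes of these genes had a median of 0.84 in A549, 0.85 in HCT116, 0.36 in PC3 and 0.42 in T47D cells. DSP, the desmoplakin that binds the filaments, rose in every line, from 67.9 ± 18.2 to 296 ± 94.8 CPM in A549 cells (log2 2.13, edgeR adjusted p = 8.8e-05), by 1.70 in HCT116 cells (adjusted p = 0.000391), by 0.62 in PC3 cells (adjusted p = 0.0107) and by 2.04 in T47D cells (adjusted p = 0.00172). JUP, the junction protein plakoglobin, rose in every line too, most in HCT116 cells (2.25, adjusted p = 7.8e-05). Plakin and hemidesmosome genes, which link filaments to the cell base, were called higher for 4 of 10 in A549, 6 of 10 in HCT116, 8 of 10 in PC3 and 0 of 9 in T47D cells (17.6%, 23.3%, 16.6% and 6.55% of all genes), where 4 had an unadjusted p under 0.05, DESeq2 called 3 and the replicate block called 3. The plakin and hemidesmosome median was 0.40 on the log2 scale in A549, 1.01 in HCT116, 0.57 in PC3 and 0.43 in T47D cells. The hemidesmosome integrin ITGB4 rose in A549 (1.69, adjusted p = 1.71e-05), HCT116 (2.22, adjusted p = 0.000162) and PC3 cells (0.93, adjusted p = 0.00152), as did the plakin EPPK1, and in T47D cells the values were 0.68 for ITGB4 and 0.81 for EPPK1 (adjusted p = 0.0526 and 0.0552).

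Of the other intermediate filament genes, 4 were called higher and 1 lower of 9 tested in HCT116 cells, against 5 higher of 13 in A549, 4 higher of 9 in PC3 and 1 higher of 9 in T47D cells (3 with the replicate block). The shares of all genes called higher were 23.3% in HCT116, 17.6% in A549, 16.6% in PC3 and 6.55% in T47D cells, and 27.0% were called lower in HCT116 cells. VIM, the vimentin gene, rose in A549 (1.2, edgeR adjusted p = 0.000113), PC3 (0.79, adjusted p = 0.00116) and T47D cells (1.87, adjusted p = 0.0101, and 0.0902 without normoxia replicate 1). In HCT116 cells VIM was at 4.71 ± 0.320 CPM in normoxia and 7.07 ± 0.986 CPM in hypoxia (0.56, adjusted p = 0.0572). There it passed by DESeq2 (adjusted p = 0.0314), with the replicate block (0.0386) and in the single fit of all 24 libraries (0.00775). Of the 5 mesenchymal markers, 3 were called higher and 1 lower in A549, 3 higher in PC3, and 1 higher in HCT116 cells, whereas the 2 tested in T47D cells, FN1 (0.90, adjusted p = 0.0554) and COL1A1 (0.06, adjusted p = 0.898), did not pass, and their part in the keratin changes was not tested. The neurofilament gene NEFL rose in A549 and PC3 cells (1.45 and 1.16, adjusted p = 0.000128 and 0.00495). Of the epithelial transcription factors, 2 were called higher and 2 lower of 9 in A549, 8 higher of 13 in HCT116, 6 higher of 13 in PC3 and 4 higher of 14 in T47D cells, and the A549 counts stand beside 17.6% higher and 17.8% lower over all genes. ELF3 and KLF5, both regulators of epithelial genes, rose in every line, with the largest ELF3 value in HCT116 cells (2.84, adjusted p = 5.2e-05). CDH1, the epithelial cadherin, rose in A549 (1.13, adjusted p = 0.00482), HCT116 (2.15, adjusted p = 0.000105) and PC3 cells (0.54, adjusted p = 0.0116), was at 0.79 in T47D cells (adjusted p = 0.0644, and 0.0377 with the replicate block), and EPCAM was not called in any line (-0.45 to -0.05). The transcription factors of the epithelial-mesenchymal transition gave 1 higher and 1 lower call of 6 in A549 cells (17.6% and 17.8% of all genes) and of 3 in HCT116 cells (23.3% and 27.0%), and 0 of 5 in PC3 and 0 of 2 in T47D cells (0 at an unadjusted p under 0.05 and 0 by DESeq2), with ZEB1 lower in A549 and HCT116 cells (-0.44 and -0.85, adjusted p = 0.0151 and 0.0156) and ZEB2 higher in A549 cells (0.47, adjusted p = 0.0274). Genes of the cornified envelope were mostly below the filter, with 1 called higher in A549 cells (FLG) and TGM1 lower in HCT116 and PC3 cells (-1.25 and -0.70, adjusted p = 0.0280 and 0.0464).

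The promoters of 34 of the 55 keratins were matched by symbol in the RefSeq table (GRCh38.p14, the 250 bases before the start site). Most of these 34 belong to keratins below 1 CPM in every group, and KRT18, KRT19, KRT7, KRT81 and KRT80 were not matched. The motif counts therefore describe mainly keratins that these lines hardly expressed. The TATA box letters TATAAA, on either strand, occurred in 20 of these 34 promoters and in 10.7% of all 35116 promoters. The hypoxia motif letters ACGTG occurred on either strand in 5 of 34 and in 18.5% of all promoters, the related letters GCGTG in 4 of 34 and in 32.2%, and at least 1 of these forms in 7 of 34 and in 43.2%. The letters GGGCGG, the core of a GC box, occurred in 4 of 34 keratin promoters and in 42.6% of all. These matches describe letters in a window and do not mark a binding site. KRT8 is shown as a keratin that rose in HCT116 cells, KRT10 as the one that was lower in every line, and KRT20 as one that moved in opposite directions in HCT116 and T47D cells. Capitals mark the TATA box letters and both forms of the hypoxia motif letters in either direction, and the windows are chr12:52926470-52926719, chr17:40822615-40822864 and chr17:40885243-40885492, all on the minus strand.
KRT8: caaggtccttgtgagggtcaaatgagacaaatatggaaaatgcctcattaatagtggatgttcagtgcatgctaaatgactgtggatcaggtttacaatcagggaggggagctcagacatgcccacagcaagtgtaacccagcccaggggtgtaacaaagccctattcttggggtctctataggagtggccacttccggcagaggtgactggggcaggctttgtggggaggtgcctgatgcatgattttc
KRT10: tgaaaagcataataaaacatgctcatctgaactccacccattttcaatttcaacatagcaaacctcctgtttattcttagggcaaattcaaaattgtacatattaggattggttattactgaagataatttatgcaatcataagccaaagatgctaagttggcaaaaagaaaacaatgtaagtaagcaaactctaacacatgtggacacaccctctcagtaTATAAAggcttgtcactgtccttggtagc
KRT20: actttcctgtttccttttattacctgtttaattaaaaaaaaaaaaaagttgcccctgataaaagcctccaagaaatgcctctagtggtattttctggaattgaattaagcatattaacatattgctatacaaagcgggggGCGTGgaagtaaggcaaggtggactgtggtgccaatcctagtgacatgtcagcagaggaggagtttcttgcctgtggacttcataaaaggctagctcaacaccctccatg
The KRT8 window holds none of the 3 motifs, that of KRT10 holds 1 TATAAA close to the start site, and that of KRT20 holds 1 GCGTG. Whether the KRT8 reads of these lines came from transcripts that begin at the start site of the KRT8 window was not tested, so its letters may not describe the promoter in use.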

How the data were processed

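The authors deposited 1 table of raw read counts per library, made from poly-A selected RNA. According to their methods and processing notes, reads were trimmed with Trim Galore 0.3.3 and aligned to GRCh37 with HISAT2 2.05, fragments without a unique position were removed with Picard 2.0.1, and HTSeq 0.5.4p3 counted the rest per UCSC gene in its strict intersection mode. The strand setting is not given in the sources used here, so reads of genes that overlap on opposite strands may not have been told apart, and keratins with near copies lose reads to the uniqueness filter.

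Counts were tested with the quasi-likelihood test of edgeR 4.0.16 in R 4.3.3, after filterByExpr and TMM scaling, with Benjamini-Hochberg adjustment over all genes tested. Values in the text are edgeR log2 fold changes ± SE, and CPM values are means ± SD of 3 libraries. The hypoxia test used the 6 libraries of a line, the line contrasts the 12 normoxic libraries, and the interaction all 24. Named keratins have a mean of at least 1 CPM in 1 of the 8 groups or a hypoxia call in a line. From other lists, VIM, CDH1, DSP, EPCAM and up to 2 genes called alike in most lines are named. The keratins and the lists were chosen with earlier results of these data known. Replicate numbers were taken to pair libraries where deviations from the group means correlated above 0.1 in all 3 pairs, which held in T47D cells. Transcript length, GC content and shared 50-base stretches came from GENCODE 44 transcripts on GRCh37, found for all 55 keratins and 93.4% of all symbols.

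Alternatives were DESeq2 1.42.0, RLE size factors, library totals, either no count filter or one that asked for 50 counts on average, the block on replicate number, a single fit of all libraries, stricter folds, the hypoxic libraries for line calls, and each library left out. Spline adjustment for GC content and length was added after seeing the data. Tests were checked on simulated counts. No 2 libraries held identical values, and floors cover counting error only.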

Additional observations from a re-analysis of the deposited data

Results flagged for a closer look

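For 13 keratins the hypoxia change differed between the 4 lines by the edgeR interaction test, which is what drew attention to them. Adjusted p values were 0.00413 for KRT222, 0.00426 for KRT80, 0.00828 for KRT15, 0.0101 for KRT18, 0.0102 for KRT81, 0.0223 for KRT8, 0.0246 for KRT23, 0.0271 for KRT83, 0.0356 for KRT20, 0.0381 for KRT16, 0.0394 for KRT7, 0.0451 for KRT10 and 0.0490 for KRT19. KRT23 and KRT20 were called in opposite directions in HCT116 (-0.93 and -1.60 on the log2 scale) and T47D cells (0.82 and 2.68), and KRT15 in HCT116 (1.32) and A549 cells (-0.78). KRT10 and KRT19 kept 1 direction in all 4 lines and differed in size, from -1.53 to -0.39 and from 0.38 to 1.61. The KRT81 value rests on HCT116 hypoxia replicate 2, without which its log2 fold change there was 0.82 in place of 1.93, and the KRT222 value in HCT116 cells was -0.43 in place of -1.80 after adjustment for GC content and length. For KRT7 the adjusted p was 0.0503 with the replicate block. KRT19 was at 0.0553 with RLE size factors, 0.0626 without a count filter and 0.064 at a mean count of 50 or more.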

How the results depend on the processing

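Of 2859 values computed under an alternative, 2587 kept their direction and their side of the threshold or stayed within the limits for a count, 112 lost and 72 gained a call, 85 moved and 3 changed direction. For the keratins higher in hypoxia, the 1 of A549 cells became 2 with the replicate block, in a single fit of all 24 libraries and with GC content and length adjusted together with the block, and 1 to 2 with a library left out. The 9 of HCT116 cells became 14 in the single fit, where 4362 of all 16089 genes were called higher in that line. With a library left out, the keratins higher in HCT116 cells numbered 6 (without hypoxia replicate 2) to 9. The 5 of PC3 cells became 3 with a mean count of at least 50, 2 in the single fit, 3 with GC content and length adjusted, without or with the block, and 4 to 6 with a library left out. The 3 of T47D cells, whose replicate numbers passed the rule for pairing, became 10 with the replicate block, 9 by DESeq2, 5 without a filter and 11 in the single fit. They became 7 with GC content and length adjusted and the block, and 0 (without normoxia replicate 1) to 7 (without normoxia replicate 3) with a library left out. Over all genes in T47D cells, 1327 of 14408 were called higher with the block, 1289 of 15040 by DESeq2 and 2231 of 16089 in the single fit. For the keratins lower in hypoxia, the 4 of A549 cells became 1 in the single fit and 0 (without normoxia replicate 1) to 4 with a library left out, and the 4 of HCT116 cells 2 (without normoxia replicate 2) to 4. The 0 of PC3 cells became 1 by DESeq2, with library totals, without a filter and with the block, 2 with GC content and length adjusted, without or with the block, and 0 to 1 (without normoxia replicate 2) with a library left out. The 1 of T47D cells became 0 without hypoxia replicate 1 or 2 or normoxia replicate 1 or 2, and the range was 0 to 1. The 13 keratins that differed between lines became 12 with the block, 11 with RLE size factors, 11 without a filter, 9 at a mean count of 50 or more, and 0 to 9 with a replicate number left out of every group. Of the line calls, the 6 line-high keratins of A549 cells became 2 at a fold over 4 and 3 in the hypoxic libraries, its 3 line-low keratins 6 in the hypoxic libraries, the 2 line-high keratins of HCT116 cells 1 with a mean count of at least 50, and the 2 line-low keratins of T47D cells 1 with that filter and 1 (without HCT116 normoxia replicate 3) to 2 with a library left out. In the hypoxic libraries the smallest gap turned for KRT83 in A549 (-0.09), KRT18 in HCT116 (0.21) and KRT15 in PC3 cells (-0.15). The causes were not tested. A stricter filter left fewer genes to test, and leaving out a library left fewer samples. In A549, HCT116 and PC3 cells the replicate numbers did not pass that rule in all 3 pairs (r from 0.071 to 0.289). Library totals in place of TMM moved the median of all genes to -0.13 in A549 and -0.12 in T47D cells. The floor of 3 counts limits statements on keratins below 0.123 CPM.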
